A study of Mus musculus with 9 samples.

Results

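The genes described here are 10 transcription factors of striatal neurons, *Foxp1*, *Foxp2*, *Bcl11b*, *Meis2*, *Zfp503*, *Rarb*, *Ebf1*, *Isl1*, *Six3* and *Sp9*. They were chosen by name, for their place in the development and identity of striatal neurons, by a rule that used no measured value. Earlier results of these data were known when they were chosen. The deposited expression table holds 15464 genes, and 10 of the 10 factors are among the 14239 genes that were tested. The striatum was taken from adult male mice on a C57BL/6J background, 10 to 12 weeks of age, and sequenced as bulk mRNA with 1 library per mouse. Wild-type (WT) littermates, *Shank3B* heterozygotes (HET) and *Shank3B* knock-outs (KO) were compared, with 3 mice per genotype (n = 3). The *Shank3B* allele is a germline change of some exons of *Shank3*, the gene of a scaffold protein of excitatory synapses, so HET mice keep 1 intact copy of those exons in every cell and KO mice keep none. The question put to the 10 factors is whether their mRNA level in the striatum moved with the number of intact *Shank3* copies.

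Most neurons of the striatum are spiny projection neurons (SPN), which are inhibitory and fall into a direct pathway class with the dopamine receptor *Drd1* and an indirect pathway class with *Drd2*. Their fate is set in the embryonic lateral ganglionic eminence by transcription factors, many of which stay on in the adult neuron. *Foxp1* and *Foxp2* encode forkhead repressors that pair with each other, and *Bcl11b* encodes the zinc finger protein Ctip2, which SPN need to mature. *Meis2*, a homeodomain factor, *Zfp503*, a zinc finger factor also called Nolz1, and *Rarb*, a receptor for retinoic acid, mark the early striatal lineage. *Ebf1* and *Isl1* act in direct pathway neurons, and *Isl1* also acts in the cholinergic interneurons of the striatum. *Six3* and *Sp9* are required for indirect pathway neurons. In bulk tissue, fewer cells of a type and less RNA per cell cannot be told apart.

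For *Rarb*, *Foxp1* and *Six3*, short promoter stretches are shown, since they carry letters known to be bound by members of these factor families. Windows of 250 bases before annotated transcription starts were available for 9 of the 10 genes from RefSeq (GRCm38.p6), and 32851 windows of all genes were searched on both strands. Each stretch is 30 bases, read 5′ to 3′ on the strand of the gene, with the matched letters in capitals.
Rarb, chr14:16575506-16575535, minus strand: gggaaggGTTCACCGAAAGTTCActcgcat
Foxp1, chr6:99521067-99521096, minus strand: ctaaggactaaaTAAACAgttgtaactcca
Foxp1, chr6:99266575-99266604, minus strand: gctgagtgtttgTGTTTAtgcaaaggggcc
Foxp1, chr6:99028336-99028365, minus strand: ggcggcgcggggTGTTTAgaggcgggttgt
Six3, chr17:85620683-85620712, plus strand: gattggcagggcTGACAGtgattggcagtg

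The *Rarb* stretch is shown because it holds the letters of a retinoic acid response element, a direct repeat of GTTCA with 6 bases between, which 22 of all 32851 windows held (0.067%), and its matched letters begin 52 bases before the start. The *Foxp1* stretches hold the forkhead core TGTTTA, or its reverse complement, in each of the 3 *Foxp1* windows, against 12% of all windows. The *Six3* stretch holds TGACAG, the core bound by Meis proteins, which 15.9% of all windows held. A *Foxp1* window also held it, as the reverse complement. The matched letters in these stretches overlap no other motif searched. The remaining motifs were GGGCGG, the GC box of Sp factors (*Foxp1* and *Sp9* windows, 32.7% of all), CCCNNGGG of Ebf factors (*Bcl11b* and *Foxp1*, 11.8%) and TAATTA of homeodomain factors (*Foxp1*, 4.84%). Such short cores are common, and a match describes letters and not a bound site.

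The deposited values are normalized counts, described by the study as read counts divided by a size factor for each library, and whether a correction for transcript length is also in them is not known. They sum to between 30830020 and 33790296 per library. The total for *Shank3* was 7209, 8812 and 6043 in WT, 7575, 7098 and 8050 in HET and 10237, 10798 and 10578 in KO. That total adds all exons, those outside the allele included, so it does not check the deletion. HET replicate 3 and KO replicate 3 stood apart from the other 7 libraries on the first principal component of all tested genes, which held 33.6% of the variance. Markers of the dissected tissue were abundant, with *Ppp1r1b*, the SPN phosphoprotein DARPP-32, at 12449 to 31982 normalized counts. The choroid plexus gene *Ttr*, by contrast, was at 0 to 26.6. WT replicate 3 and KO replicate 3 had the lowest sums over 15 shared SPN markers, 171226 and 185157, and the other 7 libraries ranged from 211104 to 307684. They also had the highest sums over 16 cortical neuron markers, 111320 and 118366, against 86246 to 107108 in the others. Both libraries come back in the results below, and so values are given with and without them.

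Among WT libraries the 10 factors covered a wide range of levels. Compared as normalized counts per kilobase of merged exons, *Meis2* was highest at 724 ± 129 (SD, n = 3), followed by *Bcl11b* at 657 ± 173, *Foxp1* at 428 ± 91.7 and *Rarb* at 365 ± 103. *Six3* stood in the middle at 160 ± 58.6. Below it came *Foxp2* at 72.4 ± 8.93, *Sp9* at 69.1 ± 3.87, *Zfp503* at 57.2 ± 15.2, *Isl1* at 39.9 ± 14.3 and *Ebf1* at 27.9 ± 10.9. The ranges over the WT mice overlapped for neighbours in this order except between *Rarb* and *Six3* and between *Six3* and *Foxp2*, so the factors formed 4 high genes, *Six3*, and 5 low genes. Divided by the longest coding transcript instead, *Foxp1* stood above *Bcl11b* and *Isl1* above *Zfp503*. *Foxp2* was then at 175, between *Six3* at 236 and *Sp9* at 77.2, and the WT ranges of *Foxp2* and *Six3* overlapped. The grouping is therefore that of merged exons. *Rarb* shares 1793 exon bases with *Top2b*, which lies on the opposite strand. *Sp9* likewise shares 270 with *Cir1*. Whether strand was used in the quantification is not given in the sources used here, so both levels are uncertain to that extent.

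**Figure D1:**
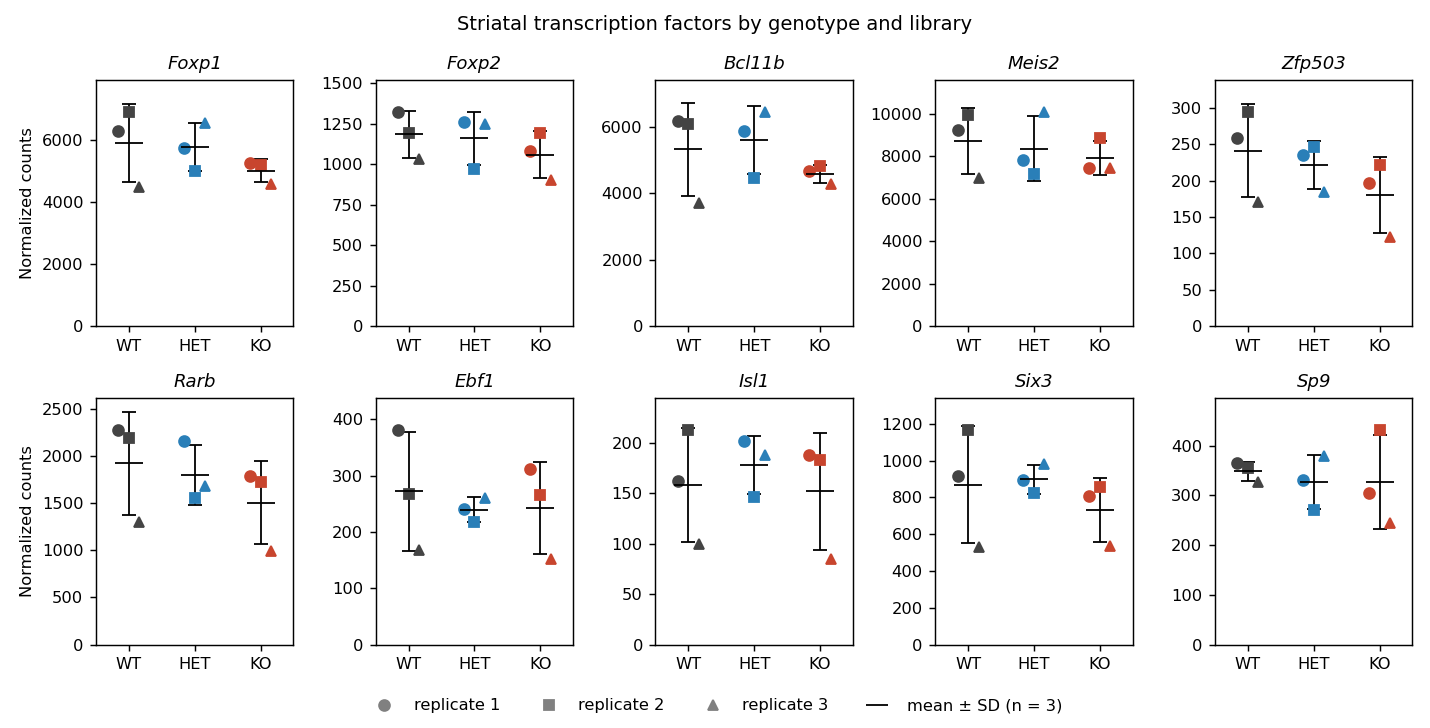
Normalized counts (y axis, from 0) of the 10 factors in each of the 9 libraries by genotype (x axis). Symbols mark the replicate number, and bars are the mean ± SD of 3 mice. For every factor the HET and the KO libraries overlap the WT libraries, and the triangles of WT and KO replicate 3 are the lowest of their genotype in all 10 panels.

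No factor was called in either mutant. *Foxp1* and *Foxp2*, the forkhead repressors, were close to WT in HET and fitted lower in KO, within the spread of the WT mice. *Foxp1* had 6278, 6891 and 4467 normalized counts in the 3 WT libraries, 5737, 5004 and 6532 in HET and 5252, 5168 and 4571 in KO. All HET and KO libraries lay inside the WT range, which WT replicate 3 held open at its low end. The log2 fold change of *Foxp1* was -0.01 ± 0.16 (SE) in HET and -0.21 ± 0.16 in KO, where its 95% interval ran from -0.57 to 0.15. *Foxp2* had 1323, 1195 and 1032 normalized counts in WT, 1260, 972 and 1246 in HET and 1079, 1193 and 903 in KO. Here KO replicate 3 and HET replicate 2 lay under every WT library. The log2 fold change of *Foxp2* was -0.03 ± 0.15 in HET and -0.16 ± 0.15 in KO, with an interval of -0.49 to 0.16 in KO.

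*Bcl11b* and *Meis2*, the most abundant of the factors per length, had KO libraries inside the WT range. *Bcl11b* had 6176, 6091 and 3711 normalized counts in WT, 5892, 4461 and 6460 in HET and 4675, 4824 and 4298 in KO. The 3 KO libraries were close together, between the low WT library and the other two. Its log2 fold change was 0.09 ± 0.20 in HET and -0.18 ± 0.20 in KO, with an interval of -0.62 to 0.27 in KO. *Meis2* had 9236, 9949 and 6963 normalized counts in WT, 7807, 7158 and 10081 in HET and 7456, 8848 and 7430 in KO. The KO libraries again lay inside the WT range, and the highest of all libraries was HET replicate 3. Its log2 fold change was -0.06 ± 0.16 in HET and -0.13 ± 0.16 in KO, with an interval of -0.49 to 0.24 in KO.

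*Zfp503* and *Rarb*, both factors of the early striatal lineage, had the lowest fitted values in KO. *Zfp503* had 258, 295 and 170 normalized counts in WT, 235, 246 and 184 in HET and 197, 222 and 122 in KO. KO replicate 3 was the lowest library, while the other KO libraries lay inside the WT range. *Zfp503* had a log2 fold change of -0.09 ± 0.26 in HET and -0.43 ± 0.26 in KO, with an interval of -1.01 to 0.16 in KO. *Rarb* had 2272, 2194 and 1296 normalized counts in WT, 2163, 1558 and 1679 in HET and 1791, 1727 and 996 in KO. Its 2 lowest libraries were KO replicate 3 and WT replicate 3. *Rarb* had a log2 fold change of -0.06 ± 0.26 in HET and -0.36 ± 0.26 in KO, with an interval of -0.95 to 0.23 in KO. Both values moved with KO replicate 3 and with WT replicate 3. Without KO replicate 3 *Zfp503* was at -0.17 and *Rarb* at -0.083 in KO versus WT, and *Rarb* was then no longer among the lowest. Without WT replicate 3 they were at -0.66 and -0.62, and without both libraries at -0.40 and -0.34.

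*Ebf1* and *Isl1*, which act in direct pathway neurons, were the scarcest factors per length and the most variable. *Ebf1* had 381, 268 and 169 normalized counts in WT, 242, 217 and 261 in HET and 311, 266 and 151 in KO. WT alone spanned more than the distance between any means. *Ebf1* had a log2 fold change of -0.11 ± 0.31 in HET and -0.15 ± 0.31 in KO, with an interval of -0.85 to 0.55 in KO. *Isl1* had 162, 212 and 99.5 normalized counts in WT, 201, 146 and 188 in HET and 188, 183 and 85.1 in KO. The libraries other than WT and KO replicate 3 stayed between 146 and 212. Its log2 fold change was 0.23 ± 0.34 in HET and -0.08 ± 0.34 in KO, with an interval of -0.84 to 0.69 in KO.

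*Six3* and *Sp9*, the factors of indirect pathway neurons, differed in how they spread. *Six3* had 915, 1165 and 531 normalized counts in WT, 893, 825 and 983 in HET and 809, 854 and 534 in KO. WT and KO replicate 3 were nearly level and far under the other 7 libraries. *Six3* had a log2 fold change of 0.12 ± 0.27 in HET and -0.21 ± 0.27 in KO, with an interval of -0.80 to 0.39 in KO. *Sp9* had 364, 354 and 327 normalized counts in WT, 330, 270 and 379 in HET and 305, 431 and 244 in KO. *Sp9* was the most even of the factors across the WT mice, and its values were widest in KO. It was the only factor with both its highest and its lowest library in KO. Its log2 fold change was -0.11 ± 0.20 in HET and -0.13 ± 0.20 in KO, with an interval of -0.58 to 0.32 in KO.

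**Figure D2:**
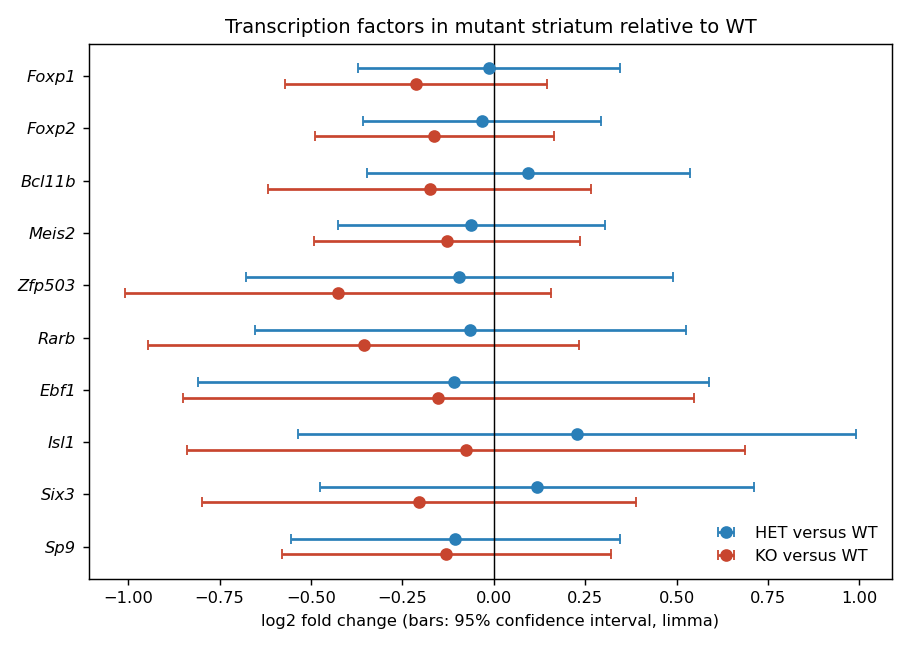
The log2 fold change of each factor (x axis) in HET and in KO relative to WT, with 95% confidence intervals from limma over all 9 libraries. All 20 intervals include 0, the HET values scatter on both sides of 0, and the 10 KO values lie between -0.43 and -0.08.

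In HET versus WT, 0 of the 10 factors passed the threshold (adjusted p under 0.05, limma with Benjamini-Hochberg adjustment over 14239 genes), and 0% of all genes did. At an unadjusted p under 0.05 the count was also 0 of 10, beside 158 genes or 1.11% of all. The fitted value was below 0 for 7 of 10 factors, against 50.7% of all genes, and the median over the factors was -0.05 (log2). In KO versus WT, 0 of 10 passed and 0% of all genes did. The study itself tested with DESeq2 and an empirical null, and reported differentially expressed genes in both HET and KO. The shares of 0% are those of limma on the deposited values. The unadjusted count in KO versus WT was 0 of 10, beside 117 genes or 0.822% of all. With an empirical null for the limma statistics it was 1 of 10, *Zfp503*, beside 650 genes. All 10 factors had a fitted value below 0 in KO versus WT, against 48.4% of all genes, with a median of -0.17 beside 0.00 over all genes. The smallest unadjusted limma p among them in KO versus WT was 0.135, for *Zfp503*, and the adjusted p was 0.999 for each. The exact two-sided permutation p of the 10 factors in KO versus WT ran from 0.3 to 0.7, and 3 mice against 3 cannot give less than 0.1. HET and KO were set against the same 3 WT libraries, so these 2 sets of values are not independent of each other. Replicates are separate mice, and each p measures the spread between them.

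Set directly against HET, KO also had 10 of 10 fitted values below 0, where 50.4% of all genes did. The values ran from -0.03 ± 0.20 for *Sp9* to -0.33 ± 0.26 for *Zfp503*, with a median of -0.23. By the same limma test 0 of 10 passed, 0% of all genes did, and at an unadjusted p under 0.05 there were 0 of 10 beside 1.31% of all genes. With the replicate number as a block, 318 genes in place of 186 were at an unadjusted p under 0.05 in KO versus HET, 0 were called, and *Zfp503* was the only factor among them (limma, adjusted p = 1.00). Gene lists went both ways in the same comparison. Of 25 other transcription factors of the striatal lineage, 17 were above 0 and 8 below, with a median of 0.17. Of 16 cortical markers 12 were above 0 and 4 below, with a median of 0.066. All 10 oligodendrocyte markers (median -0.30), all 11 cholinergic markers (median -0.34), 12 of 15 shared SPN markers (median -0.32) and 9 of 10 vascular markers (median -0.097) were below 0 in KO versus HET, and 0 of them were called by limma or at an unadjusted p under 0.05. The summed oligodendrocyte markers were 141091 to 165363 in HET and 92997 to 149030 in KO. Their part in the values of the factors was not tested. A straight line over 0, 1 and 2 intact *Shank3* copies called 0 of 10 factors and 0% of all genes. At an unadjusted p under 0.05 it gave 0 of 10 factors, beside 0.969% of all genes. The slope in log2 per intact copy was largest for *Zfp503*, 0.21 ± 0.13 (limma adjusted p = 0.999), and next for *Rarb*, 0.18 ± 0.13. Without KO replicate 3 these slopes were 0.086 and 0.043, and 4 factors had a negative slope. Without WT replicate 3 they were 0.33 and 0.31, and 5 factors were at an unadjusted p under 0.05, beside 347 of all 14239 genes. Without both libraries they were 0.20 and 0.17. *Foxp1* (0.17) and *Bcl11b* (0.18) were then the 2 factors at an unadjusted limma p under 0.05, beside 378 genes. With the replicate block *Zfp503* and *Rarb* were at an unadjusted p under 0.05 along the slope, beside 341 genes, with a limma adjusted p = 0.999 for both. Not overlapping with WT held for 0 of 10 factors in HET and in KO, while 4.45% and 4.54% of all genes had no overlap.

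The fitted values moved with single mice. WT replicate 3 was the lowest WT library for 10 of 10 factors, against 34% of all genes. KO replicate 3 was the lowest KO library for 10 of 10, against 41.2%. One of the pair was the lowest of all 9 libraries for every factor, KO replicate 3 for 6 (16.2% of all genes) and WT replicate 3 for the other 4 (8.27%). Without WT replicate 3 the median over the factors in KO versus WT was -0.41. In that fit 5 factors had an unadjusted limma p under 0.05, beside 292 of all 14239 genes. The 5 factors were *Foxp1* (-0.40), *Bcl11b* (-0.42), *Zfp503* (-0.66), *Six3* (-0.52) and *Rarb* (-0.62), and the adjusted p was 1.00 for each of the 10. Without KO replicate 3 the median was -0.07, and 6 of 10 fitted values were below 0. *Ebf1*, *Isl1*, *Six3* and *Sp9* were then at 0.16, 0.30, 0.01 and 0.06. Without both, 9 of 10 were below 0 with a median of -0.28, and the exception was *Sp9* at 0.01. *Foxp1* (-0.34) was then the only factor at an unadjusted limma p under 0.05, beside 339 of all 14239 genes. Leaving out WT replicate 1 or WT replicate 2 gave KO medians of -0.088 and -0.10. The HET values depended on WT libraries and on HET replicate 2. Without WT replicate 3, 10 of 10 factors were fitted below 0 in HET versus WT with a median of -0.20, and without WT replicate 1 or 2 only 3 of 10 were. Without HET replicate 2, 2 of 10 were, with a median of 0.062. KO versus HET had a median of -0.022 without KO replicate 3, with 7 of 10 below 0. The part of single mice in these values was otherwise not tested.

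**Figure D3:**
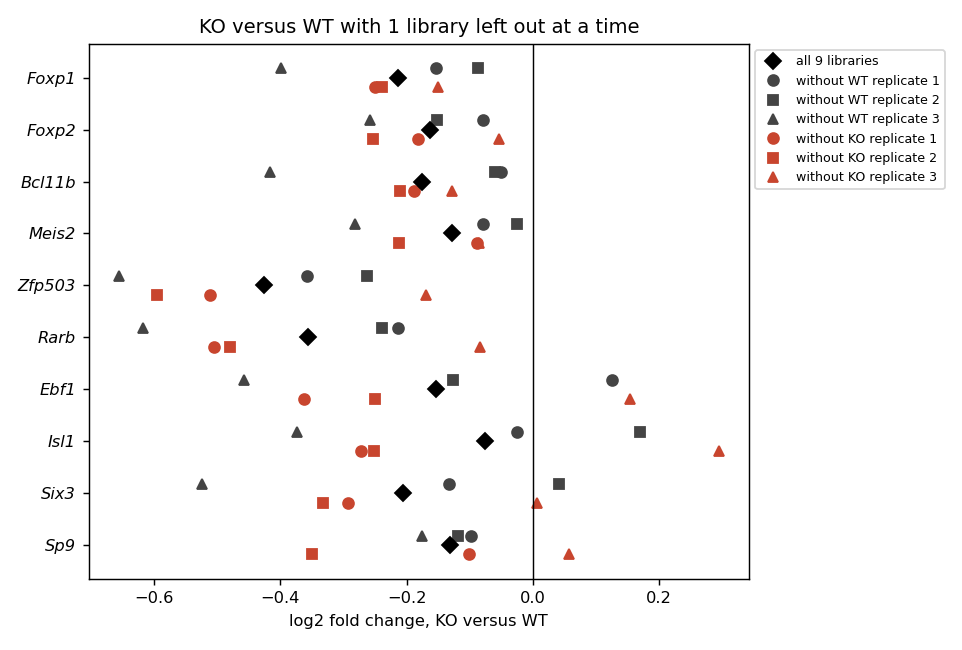
The log2 fold change of each factor in KO versus WT (x axis) with all 9 libraries (diamonds) and after leaving out 1 WT library (grey) or 1 KO library (red). Leaving out WT replicate 3 gives the lowest value for 9 of the 10 factors, and leaving out KO replicate 3 puts *Ebf1*, *Isl1*, *Six3* and *Sp9* above 0.

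Across the 9 mice the levels of the factors varied together. Over the 45 pairs of factors, Pearson's r of the log2 values was positive in 45, between 0.44 and 0.95 with a median of 0.76. By an exact permutation test with Benjamini-Hochberg adjustment over the 45 pairs, 27 pairs passed with Pearson's r and 9 with Spearman's rho. The permutations treat the 9 libraries as exchangeable. They take account neither of the 3 genotypes nor of any pairing of libraries by replicate number. *Foxp1* and *Bcl11b* were the closest pair, with r = 0.95 and rho = 0.93 (exact permutation adjusted p = 0.00155 and 0.00843, unadjusted p = 6.89e-05 and 0.00075), and r was 0.96 without the 2 libraries farthest from the median of *Foxp1*. *Isl1* and *Six3* had r = 0.93 and rho = 0.70 (exact permutation adjusted p = 0.0156 and 0.0846, unadjusted p = 0.00175 and 0.0433), and r fell to 0.58 without WT and KO replicate 3. *Ebf1* and *Isl1* had r = 0.78 and rho = 0.60 (exact permutation adjusted p = 0.0299 and 0.124, unadjusted p = 0.0157 and 0.0968), and r was -0.00 without the same 2 libraries, so that relation rests on them. *Sp9* was the factor least tied to the rest, with a median r of 0.59 and 1 pair past the threshold. Left without WT and KO replicate 3, 43 of 45 pairs were positive with a median of 0.46, and 1 pair passed.

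The factors also followed genes that mark SPN in general. The mean log2 value of 15 shared SPN markers, among them *Ppp1r1b*, was set against each factor over the 9 libraries. These were 10 of 50 such relations computed, 5 marker lists by 10 factors, over which p was adjusted. For *Foxp1* r was 0.98 and rho 1 (exact permutation adjusted p = 0.000551 and 0.000276, the unadjusted p of rho being 5.51e-06), and r was 0.97 without the 2 farthest libraries and 0.97 without WT and KO replicate 3. *Bcl11b* was next with r = 0.96, then *Six3* with 0.92, and 8 of the 10 factors passed with Pearson's r. *Zfp503* (r = 0.64, exact permutation adjusted p = 0.0773) and *Sp9* (r = 0.46, exact permutation adjusted p = 0.219) did not pass. Over the 10 factors the median r was 0.81, or 0.75 without the 2 farthest libraries and 0.64 without WT and KO replicate 3. Relations with indirect pathway markers passed for 9 of 10 factors and with direct pathway markers for 7. Cholinergic interneuron markers gave 6 of 10. With cortical markers all 10 values of r were negative, with a median of -0.64, and 4 of 10 passed with Pearson's r and 1 with Spearman's rho. Without WT and KO replicate 3 the median r with cortical markers was -0.24 and 4 of 10 were positive.

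**Figure D4:**
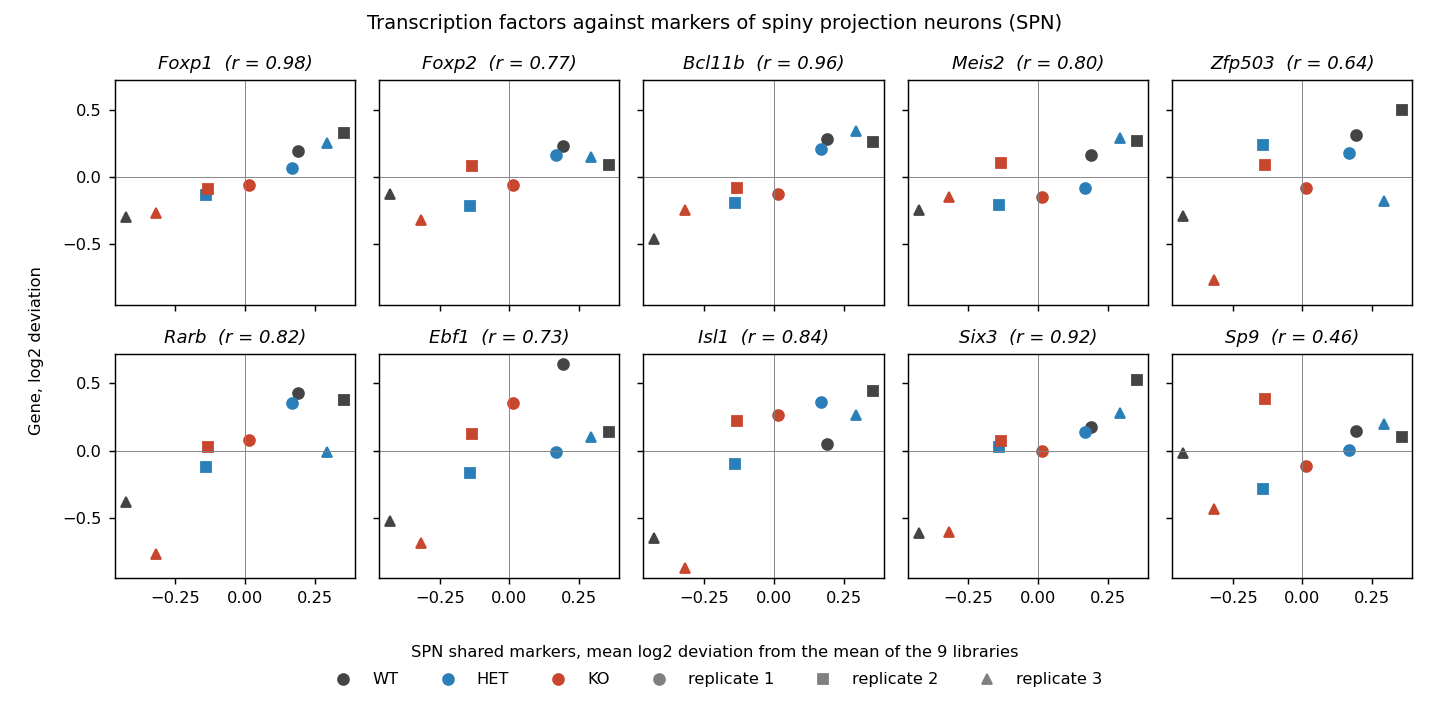
Each factor (y axis) against the mean of 15 shared SPN markers (x axis), both as log2 deviation from the mean of the 9 libraries, with colours for genotype and symbols for replicate. *Foxp1* and *Bcl11b* lie close to a line, with r = 0.98 and 0.96, while *Zfp503* and *Sp9* scatter.

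Expressed relative to those SPN markers, most of the spread within a genotype was no longer there for some factors and was kept for others. The pooled within-genotype SD of *Foxp1* was 0.23 (log2) as deposited and 0.07 relative to the markers, and that of *Bcl11b* went from 0.29 to 0.09. *Six3* went from 0.40 to 0.19, and *Ebf1* and *Isl1* from 0.47 and 0.51 to 0.31 each. *Foxp2* stayed at 0.20 and 0.19, and *Sp9* at 0.28 and 0.29. This scaling moved all genes upward in KO versus WT, to a median of 0.19 with 8.83% of them below 0. On it 4 of 10 factors had a fitted value below 0 and their median was 0.02. The lowest were again *Zfp503*, at -0.24, and *Rarb*, at -0.17. This scaling was added after the values had been seen, and 0 of 10 factors were called with it (0 of 10 also at an unadjusted limma p under 0.05). In that fit limma took the spread of each gene from the trend over all genes. The SE in KO versus WT was 0.28 for *Foxp1* and 0.28 for *Bcl11b*, against 0.16 and 0.20 as deposited. These counts therefore do not test the factors against their own narrower spread.

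**Figure D5:**
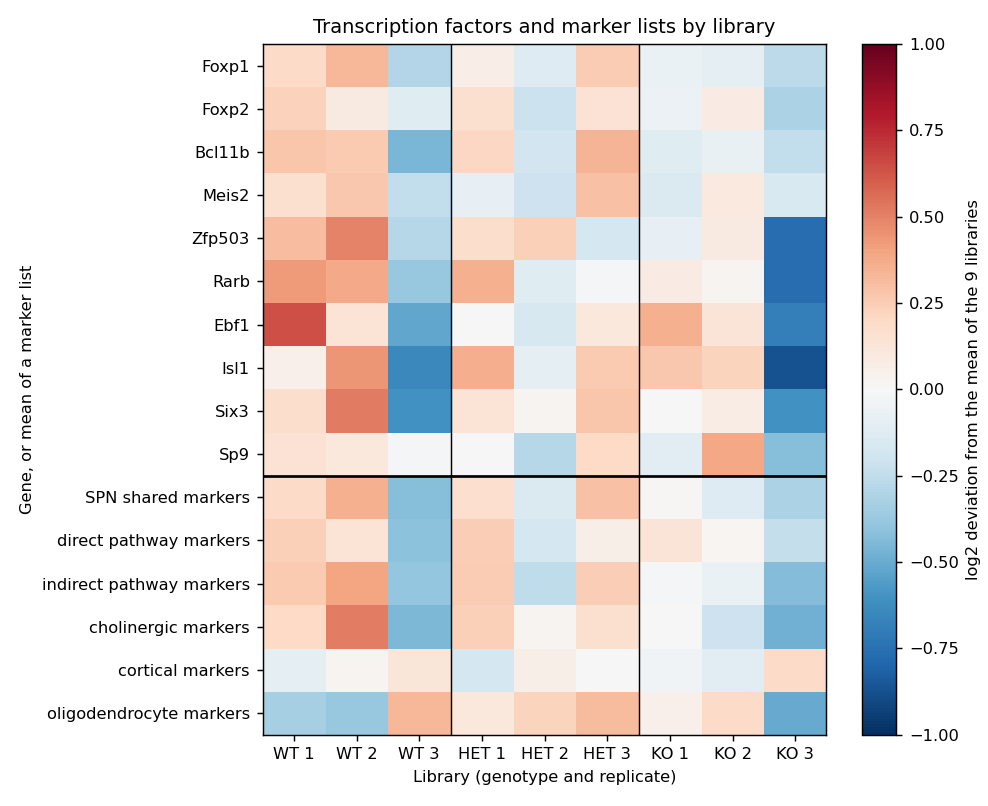
Log2 deviation of each factor (upper block) and of the mean of 6 marker lists (lower block) from the mean of the 9 libraries, by library. WT replicate 3 and KO replicate 3 are below 0 for all 10 factors, *Sp9* in WT replicate 3 only just, and for the SPN and cholinergic lists, and above 0 for the cortical list, while the oligodendrocyte list is high in WT replicate 3 and low in KO replicate 3.

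For 9 of the factors the single gene of the 14239 with the highest r over the 9 libraries is given, as a description. *Rarb* was closest to *Rgs9* (r = 0.99), which encodes a regulator of G protein signalling in SPN. *Isl1* and *Six3* shared the same closest gene, *Lhx8* (r = 0.97 and 0.98), a LIM homeodomain factor of cholinergic neurons. *Meis2* was closest to *Neto1* (r = 0.96), an auxiliary subunit of glutamate receptors. The rest were *Foxp2* with *Mum1l1* (0.97), *Bcl11b* with *Diaph2* (0.97), *Ebf1* with *Rapgef6* (0.95), *Zfp503* with *Vat1l* (0.96) and *Sp9* with *Lrch2* (0.92). Each is the top of all tested genes over 9 points that share depth and dissection, and the median r over all genes was between -0.02 and 0.00.

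Genes that work beside the factors were taken as lists. Of 25 other transcription factors of the striatal and ganglionic eminence lineage, 0 were called in any comparison by limma. In KO versus WT 15 of 25 had a fitted value below 0, with a median of -0.04, beside 48.4% of all genes. In HET versus WT 20 of the 25 were below 0, with a median of -0.14, beside 50.7% of all genes. In KO versus HET 8 of the 25 were below 0, with a median of 0.17, beside 50.4% of all genes. The 25 and the 10 factors were not tested against each other. One of them, *Pou3f1*, a POU domain factor, was at an unadjusted p under 0.05 in KO versus WT, beside 0.822% of all genes. *Pou3f1* had 1214, 1448 and 1037 normalized counts in WT, 1205, 1159 and 1481 in HET and 1045, 957 and 868 in KO, with a log2 fold change of -0.36 ± 0.14 in KO versus WT (limma adjusted p = 0.999). Of 16 tested retinoid genes, which make, carry or read the ligand of *Rarb*, 0 were called. In KO versus WT 9 of the 16 had a fitted value below 0 and 7 above. Their median was -0.04, with values from -0.56 to 0.64. In HET versus WT 6 were below 0 and 10 above, with a median of 0.02. Only *Crabp1* was at an unadjusted p under 0.05 in KO versus WT, beside 0.822% of all genes. *Crabp1*, a cellular retinoic acid binding protein, had 124, 150 and 125 normalized counts in WT, 122, 85.2 and 119 in HET and 107, 95.8 and 72.6 in KO, with -0.54 ± 0.21 in KO versus WT (limma adjusted p = 0.999). Its KO libraries lay under all WT libraries, as those of *Pou3f1* did not. KO and WT libraries did not overlap for 4.54% of all genes.

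Genes that SPN use did not pass either. Among 15 shared SPN markers 0 were called and 13 had a fitted value below 0 in KO versus WT, with a median of -0.20, close to that of the 10 factors. For direct pathway markers 5 of 7 were below 0 with a median of -0.04, and for indirect pathway markers 6 of 6 with a median of -0.26. *Drd1* was at -0.25 ± 0.28 and *Adora2a*, the adenosine receptor of indirect pathway neurons, at -0.49 ± 0.26. All 11 tested cholinergic markers were below 0, with a median of -0.29, and *Nkx2-1*, a homeodomain factor, was at -0.72 ± 0.46. In the 16 cortical markers 8 were below 0, with a median of 0.01, and *Syt6*, a synaptotagmin, was at -0.26 ± 0.24. In the SPN lists, the cholinergic list and the cortical list, 0 genes were called and 0 were at an unadjusted p under 0.05 in HET versus WT or KO versus WT. Lists of oligodendrocytes, astrocytes, microglia, vessels, choroid plexus with ependyma, and thalamus with septum and pallidum had medians between -0.02 and 0.21 in KO versus WT, and 0 of their genes were called. The part of tissue composition in the values of the 10 factors was not tested. The scaling to SPN markers cannot test it, since fewer SPN and less RNA per SPN would both lower those markers.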

How the data were processed

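The 10 factors and all gene lists were chosen with earlier results of these data known. Striatal RNA of 9 mice had been prepared with a stranded mRNA kit. Per the study's methods and the submitters' processing notes, the authors quantified transcripts with Salmon (0.9.1) on GRCm38 with GC correction, summed them to genes with tximport in R (3.6.0) and divided by DESeq2 (1.19.11) size factors. The deposited values are therefore a normalized signal, in normalized counts per gene, for 15464 genes. Whole reads could not be recovered (0.214% of values lay within 0.001 of a whole number), so the depth in reads is unknown, and no count test was run. No values were shared between libraries that would mark a duplicate (0 identical values above 0).

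Genes with at least 10 normalized counts in at least 3 libraries (14239) were tested with limma (3.58.1, R 4.3.3) with a mean-variance trend, on log2(value + 1), in 1 fit over the 9 libraries and 3 genotypes. Fold changes are on that scale and understate changes of scarce genes. The threshold was a Benjamini-Hochberg adjusted p of 0.05 over all tested genes. Data were simulated from the mean and pooled within-genotype spread of each gene over the 9 libraries, and 200 genes were changed in KO. In KO versus WT, 126 of 200 genes changed by log2 1 and 178 of 200 changed by log2 2 were recovered. There, 1 and 14 other genes were called among 14239. The simulated noise was independent between genes. Recovery of changes as small as those fitted for the factors was not tested. Exact permutation tests were run in SciPy (1.17.1), and figures were drawn with matplotlib (3.10.9). Exon overlaps and lengths came from GENCODE M21. All 10 factors are named. From each other list the genes past the threshold were named, otherwise those at an unadjusted p under 0.05 in HET or KO versus WT, otherwise the smallest p in KO versus WT. For 6 lists away from SPN the last kind is summarised by its list. The gene most like each factor by Pearson's r was also named. Some genes these rules name are not reported here.

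Replicate numbers were checked as pairs by the correlation of deviations from the genotype means. For replicates 1, 2 and 3 r was 0.52, 0.28 and 0.51 between KO and HET. Between HET and WT it was 0.32, -0.014 and 0.0054, and between KO and WT 0.24, -0.22 and 0.024. The value of HET and WT replicate 1 was above that of KO and HET replicate 2. Libraries of unlike number were not compared, so these values cannot show whether the numbers pair libraries. The labels do not say what the numbers mark. Alternatives covered the filter, pseudocount, scaling, trend, library weights, replicate block, an empirical null, the compared genotypes alone, and leaving out libraries. Leaving out WT and KO replicate 3 together and scaling to SPN markers were chosen after seeing the data.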

Additional observations from a re-analysis of the deposited data

How the results depend on the processing

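Under each alternative run, 0 of the 10 factors were called in any comparison, and 0 genes in all were called except with 2 of them. The empirical null called 1 gene in HET versus WT, 2 in KO versus WT, 2 in KO versus HET and 2 along the slope, and scaling to SPN markers called 7, 3, 6 and 3. With the empirical null *Zfp503* was the only factor at an unadjusted p under 0.05 in KO versus WT, beside 650 genes. The same held along the slope, beside 624 genes. In HET versus WT and KO versus HET 0 of 10 were, beside 529 and 981 genes. The robust SD of the limma z values over all genes was 0.73 in KO versus WT. That is narrower than a standard normal, so the unadjusted p of the main fit ran large. With the replicate block 0 genes were called in each comparison, it changed no other call, and no fitted value of a factor changed. With the block, 365 genes in place of 158 were at an unadjusted p under 0.05 in HET versus WT. In KO versus WT there were 310 in place of 117, and in KO versus HET 318 in place of 186. *Zfp503* was the only factor among those of KO versus WT and of KO versus HET. Along the slope there were 341 genes in place of 138, *Zfp503* and *Rarb* among them. The direction of all 30 fitted values of the factors held under either filter, either pseudocount, each of the 3 rescalings, no trend, a robust trend, the block, the empirical null and the compared genotypes alone. It did not hold in the following cases, where the cause was not tested. As ratios of group means, KO versus HET was 0.017 for *Ebf1* and 0.00084 for *Sp9*. With library weights, HET versus WT was -0.016 for *Bcl11b* and -0.025 for *Six3*, KO versus WT was 0.035 for *Ebf1*, 0.087 for *Isl1* and 0.0076 for *Sp9*, and KO versus HET was 0.21 for *Ebf1*, 0.056 for *Meis2* and 0.18 for *Sp9*. Relative to SPN markers, KO versus WT was 0.022 for *Foxp2*, 0.0096 for *Bcl11b*, 0.032 for *Ebf1*, 0.057 for *Meis2*, 0.11 for *Isl1* and 0.054 for *Sp9*, and KO versus HET was 0.054 for *Foxp1*, 0.12 for *Foxp2*, 0.21 for *Ebf1*, 0.19 for *Meis2* and 0.23 for *Sp9*. Without HET and KO replicate 3, HET versus WT was -0.017 for *Bcl11b* and 0.034 for *Zfp503*, KO versus WT was 0.16 for *Ebf1*, 0.30 for *Isl1*, 0.0073 for *Six3* and 0.058 for *Sp9*, and KO versus HET was 0.036 for *Foxp2*, 0.33 for *Ebf1*, 0.12 for *Meis2*, 0.11 for *Isl1* and 0.28 for *Sp9*. Without WT and KO replicate 3, HET versus WT was -0.15 for *Bcl11b*, -0.070 for *Isl1* and -0.20 for *Six3*, KO versus WT was 0.012 for *Sp9*, and KO versus HET was 0.27 for *Ebf1*, 0.069 for *Isl1* and 0.16 for *Sp9*. The pairs of factors that passed, 27 with all libraries, were 7 without HET and KO replicate 3 and 1 without WT and KO replicate 3.

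Leaving out 1 library at a time gave 4 passing pairs (without KO replicate 3) to 28. In HET versus WT the fitted values then ran from -0.20 to 0.11 for *Foxp1*, -0.13 to 0.089 for *Foxp2*, -0.15 to 0.25 for *Bcl11b*, -0.42 to 0.17 for *Ebf1*, -0.21 to 0.042 for *Meis2*, -0.070 to 0.47 for *Isl1*, -0.20 to 0.36 for *Six3*, -0.33 to 0.079 for *Rarb*, -0.33 to 0.068 for *Zfp503* and -0.22 to 0.023 for *Sp9*. In KO versus WT they ran from -0.46 to 0.16 for *Ebf1*, -0.37 to 0.30 for *Isl1*, -0.52 to 0.041 for *Six3* and -0.35 to 0.058 for *Sp9*. In KO versus HET they ran from -0.25 to 0.27 for *Ebf1*, -0.17 to 0.077 for *Meis2*, -0.50 to 0.069 for *Isl1* and -0.24 to 0.16 for *Sp9*. With 3 mice per genotype and standard errors of 0.15 to 0.34 (log2), differences of the size fitted here could not be told from 0, and a p that misses the threshold does not show that the genotypes are alike.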
